A study of Mus with 2 samples.

Results

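The genes described here encode 39 enzymes and enzyme subunits of central carbon metabolism, and they were chosen by name: 15 of glycolysis, 5 of gluconeogenesis and 19 of the citrate cycle with the pyruvate dehydrogenase step that feeds it. Of the 39 genes, 37 were listed in at least 1 cluster of the authors' deposited table, which lists 8191 genes in all, and Pklr and Pck2 were listed in none. The samples were whole-kidney cell suspensions of senescent and of young C57BL/6 mice, each run as 1 droplet single-cell library. The series states 4408 cells for the senescent mice and 10895 for the young mice. The sources used here do not give the ages or sexes of the mice, the number of mice per library, the cells per cluster or the sequencing depth.

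Glycolysis splits glucose into pyruvate in the cytosol, and lactate dehydrogenase converts pyruvate into lactate and back. Gluconeogenesis runs the reverse route through enzymes of its own and releases free glucose. In the kidney it is a property of the proximal tubule, which takes up lactate and glutamine and uses little glucose as fuel, whereas distal segments and immune cells rely more on glycolysis. The citrate cycle, in the mitochondrial matrix, oxidises acetyl units and delivers electrons to the respiratory chain.

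Each value is a mean of scaled expression over the cells of a cluster, as computed by the authors, whose 7 cluster labels are PT, LOH, endo, Marco (macrophages), T, B and Neutro. The scale factor is not stated, and levels are compared below only for the same gene. A mean over cells does not separate fewer expressing cells from less RNA per cell. An entry in the table required a p-value over cells under 0.05 and a log2 fold change of 0.36 or more in either direction, so absence from the table does not mean that a gene was unchanged. The term "past the fold rule" is used below for a listed gene whose log2 fold change is 1 or more in size and whose higher mean reaches 0.1. Since each group had a single library, the spread between mice is unknown, no test was made, and every value stands without an error.

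The cluster labels were set against their markers. In PT, 14 of 15 proximal tubule markers were listed, 7 higher and 7 lower in the senescent library. Their summed level in PT was 125 in the senescent and 855 in the young library, and without Kap, an androgen-induced gene of this segment, it was 103 in the senescent and 136 in the young library. In LOH, 1 of 5 thick ascending limb markers was listed, Umod, at 148 in the senescent and 47.6 in the young library. Of 4 distal tubule markers, 2 were listed there, Slc12a3 and Pvalb, so LOH is not taken as thick ascending limb alone. Neutrophil, T cell, B cell and macrophage or monocyte markers were listed with high means in the clusters so labelled. Of 7 endothelial markers, 0 were listed in endo, where 6 proximal tubule markers were listed, so that label is kept only as the authors' name. Proximal tubule markers were also listed in every immune cluster, and their values stand beside the results they accompany.

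Across the 7 clusters the genes gave 139 entries, and relative to the young library 17 were higher and 122 lower in the senescent one. Of all 20111 entries, 53.4% were higher and 46.6% lower. PT held 10 of the 17 higher entries. Gapdh and Mdh1 were listed in 6 clusters each and were lower in all 6.

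**Figure D1:**
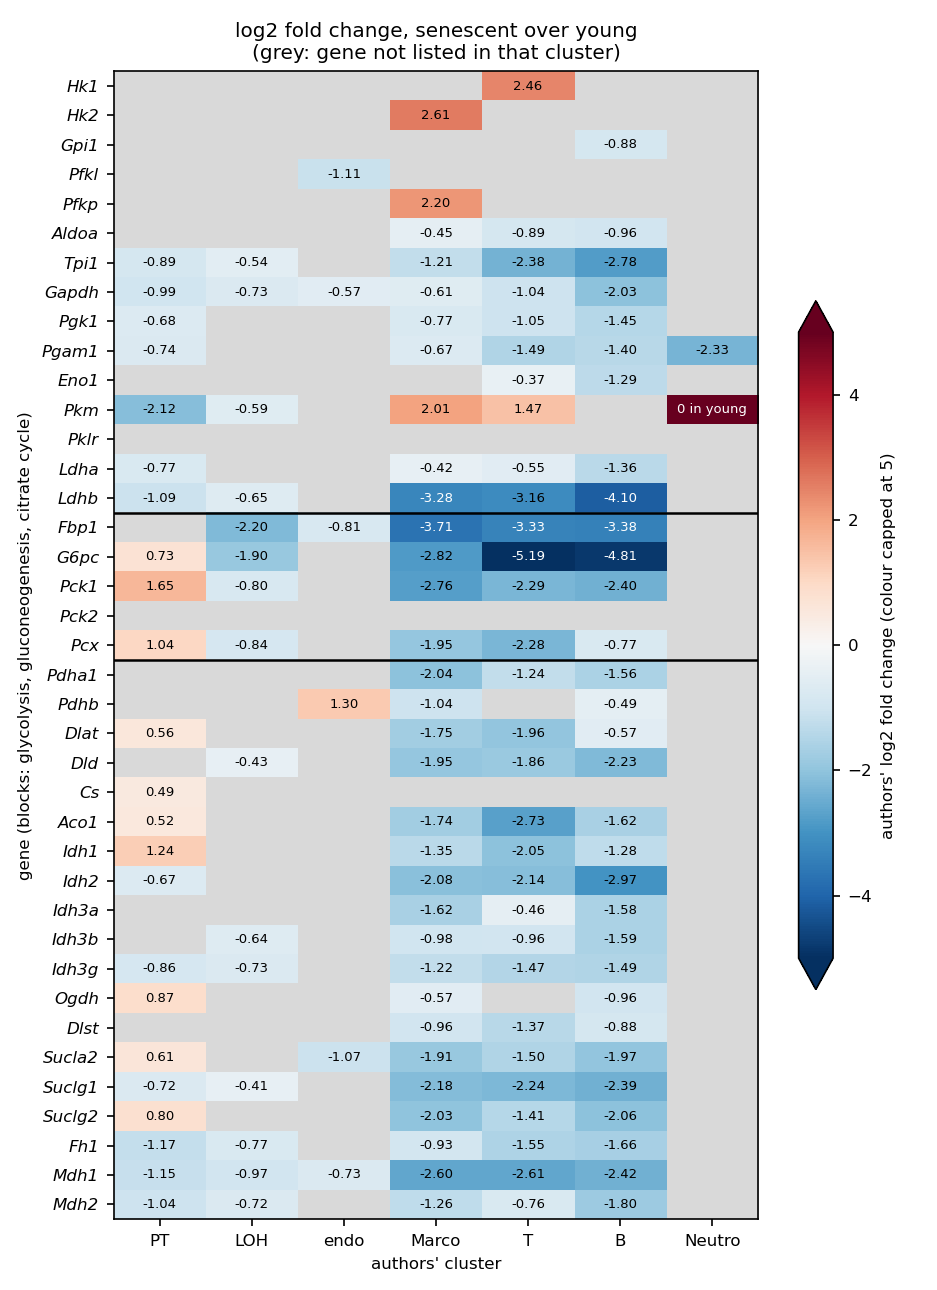
Log2 fold change of the senescent over the young library for the 39 genes (rows, in 3 blocks by pathway) in the 7 clusters of the authors (columns), as given in the authors' deposited table, with 1 library per group. Red cells are higher and blue cells lower in the senescent library, grey cells are not listed, and the 3 gluconeogenic genes listed in PT are red there and blue in every other cluster that lists them.

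In PT, which holds proximal tubule cells, the 3 pathways went different ways. All 7 listed glycolytic genes had lower means in the senescent library, all 3 listed gluconeogenic genes had higher means, and the 13 listed citrate cycle genes divided into 7 higher and 6 lower. Of all 5037 genes listed in PT, 78.4% were higher and 21.6% lower. Past the fold rule were 3 genes as higher, against 57.2% of all genes listed in PT, and 5 as lower, against 5.6% of them. The background differed with level: of the PT genes whose higher mean reaches 1, 52.6% were higher and 47.4% lower. Of the 19 enzyme genes at this level in PT, 7 were higher and 12 lower, and 3 and 4 of them were past the fold rule, against 35.9% and 14.1% of all genes at this level.

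Of the 10 higher genes in PT, Pck1 had the largest fold change. Pck1, which encodes cytosolic phosphoenolpyruvate carboxykinase and commits oxaloacetate to glucose, had a mean of 13.8 in the senescent library and 4.38 in the young library, a 3.14-fold higher level. Pcx, for pyruvate carboxylase, which makes that oxaloacetate in mitochondria, had a mean of 1.51 in the senescent and 0.730 in the young library, or 2.06-fold higher. G6pc, for the glucose-6-phosphatase that releases free glucose, was 1.66-fold higher, at 2.56 in the senescent and 1.54 in the young library, and was not past the fold rule. These enzymes stand at the start and at the end of the gluconeogenic route. Fbp1, for the fructose-1,6-bisphosphatase between them, and Pck2, the mitochondrial form of the carboxykinase, were not listed in PT. The median log2 ratio of the 3 listed genes, after adding 0.1 to each mean, was 0.95, against 0.85 for all genes listed in PT, whatever their level.

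The glycolytic genes listed in PT belong to the lower part of the pathway and to lactate dehydrogenase. Gapdh, for glyceraldehyde-3-phosphate dehydrogenase, had a mean of 12.8 in the senescent library and 25.3 in the young library, 1.98-fold lower. The triose phosphate isomerase gene Tpi1 had means of 3.51 in the senescent and 6.49 in the young library. Pgk1 and Pgam1, for the next 2 enzymes, phosphoglycerate kinase and phosphoglycerate mutase, were 1.60-fold and 1.67-fold lower. These 4 differences lay in a narrow range, from -0.99 to -0.68 on the log2 scale. Pkm, for the muscle-type pyruvate kinase of the last step, differed more, at 0.0909 in the senescent and 0.396 in the young library, 4.36-fold lower. Pklr, the pyruvate kinase gene of liver and proximal tubule, was not listed in any cluster. The hexokinase and phosphofructokinase genes Hk1, Hk2, Pfkl and Pfkp, which code for the regulated early steps, were not listed in PT either.

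Both lactate dehydrogenase subunit genes were lower in PT. Ldhb, for the heart-type subunit that is associated with lactate use, had a mean of 6.94 in the senescent and 14.8 in the young library, 2.13-fold lower. Ldha, for the muscle-type subunit, had a mean of 4.06 in the senescent and 6.94 in the young library, 1.71-fold lower. The median log2 ratio of the 7 glycolytic genes was -0.87, on the other side of zero from the 0.85 of all genes listed in PT. That 0.85 covers genes of all levels, and the 3948 higher genes had a median young mean of 0.145. All of the 7 but Pkm had a higher mean above 1, where 52.6% of PT genes were higher and 47.4% lower. Distal markers moved in the same direction as the glycolytic genes. The thick ascending limb markers Umod, Ppp1r1a and Egf, 3 of the 5 in that list, were lower in PT by 2.58, 5.38 and 2.76 on the log2 scale, and their summed level was 0.625 in the senescent and 4.75 in the young library. LOH listed Umod and also the distal tubule markers Slc12a3 and Pvalb. It had 3317% of the PT level of Pkm in the senescent library, over a PT mean of 0.0909, and 1143% in the young library. The part of these transcripts in the lower Pkm and Ldhb of PT was not tested.

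**Figure D2:**
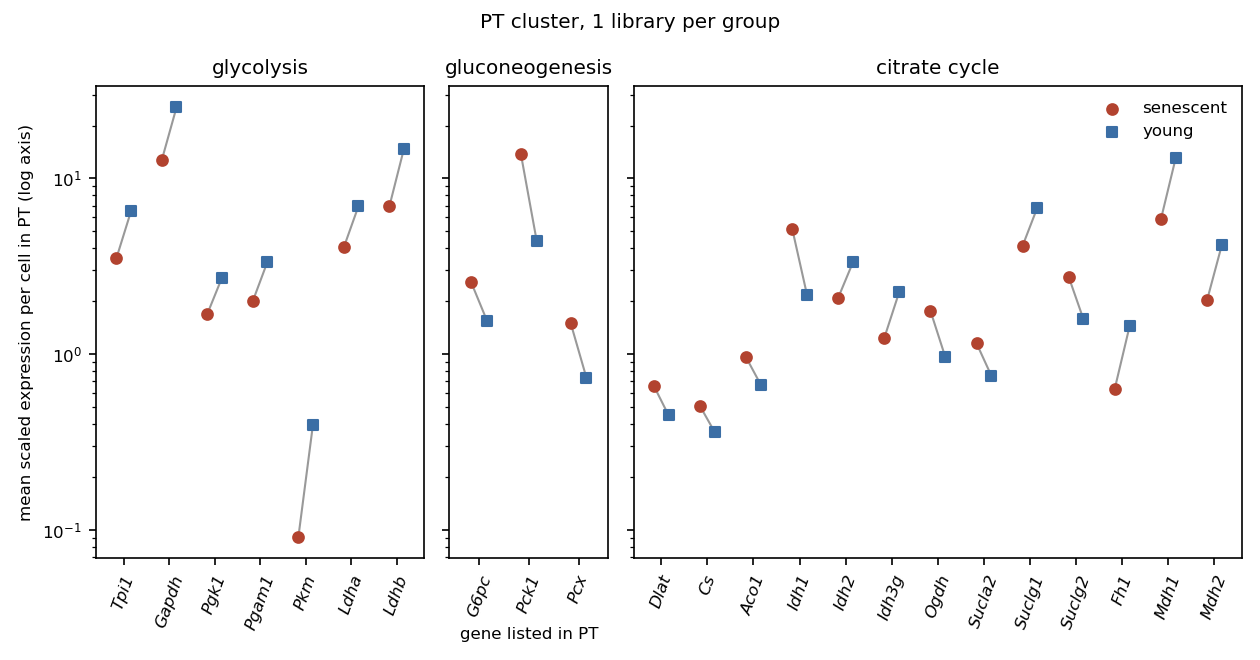
Mean scaled expression per cell in the PT cluster on a log axis for each listed gene of the 3 pathways, with the senescent library as circles and the young library as squares, 1 library per group. All 7 glycolytic genes have the circle below the square, all 3 gluconeogenic genes have it above, and the 13 citrate cycle genes divide 7 above to 6 below.

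The citrate cycle genes divided within enzymes as well as between them in PT. Idh1, for the cytosolic NADP-dependent isocitrate dehydrogenase, was the 1 gene of this group past the fold rule as higher, with a mean of 5.17 in the senescent and 2.18 in the young library, 2.37-fold higher. Its mitochondrial counterpart Idh2 was 1.59-fold lower. The pair thus had opposite directions. Of the 3 subunits of the NAD-dependent enzyme of the cycle, only Idh3g was listed, at 1.24 in the senescent and 2.24 in the young library, and Idh3a and Idh3b were not.

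Succinyl-CoA synthetase, the step that yields ATP or GTP directly, showed the same division among its subunits. Suclg2 and Sucla2, for the GDP-binding and the ADP-binding beta subunits, were 1.74-fold and 1.53-fold higher, with Suclg2 at 2.74 in the senescent and 1.58 in the young library. Suclg1, for the alpha subunit that both forms share, was 1.65-fold lower, at 4.13 in the senescent and 6.82 in the young library. The beta subunits and the alpha subunit therefore differed in direction. Ogdh, for the first subunit of the 2-oxoglutarate dehydrogenase complex, was 1.82-fold higher, at 1.76 in the senescent and 0.965 in the young library, while Dlst and Dld, for the other subunits, were not listed in PT. Cs, for citrate synthase, which starts the cycle, was listed in PT alone, at 0.505 in the senescent and 0.358 in the young library.

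The last steps of the cycle, and the shuttle enzyme related to them, were lower in PT. Fh1, for fumarase, was 2.26-fold lower, at 0.635 in the senescent and 1.43 in the young library. Mdh2, for the mitochondrial malate dehydrogenase, was 2.06-fold lower, at 2.02 in the senescent and 4.15 in the young library. Mdh1, for the cytosolic form, which links the cycle to gluconeogenesis and to the malate-aspartate shuttle, was 2.23-fold lower, at 5.84 in the senescent and 13.0 in the young library. These 3 genes were the citrate cycle genes past the fold rule as lower. Dlat, for the acetyltransferase of pyruvate dehydrogenase, and Aco1, for cytosolic aconitase, were 1.47-fold and 1.43-fold higher, and Pdha1, Pdhb and Dld were not listed in PT. The median log2 ratio of the 13 genes was 0.40, against 0.85 for all genes listed in PT, which is over genes of all levels.

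The higher and the lower genes also differed in length, which their choice did not use. In PT, the 10 higher genes had a median genomic length of 35.6 kb, and the 13 lower genes had a median of 15.2 kb. All genes listed in PT had the same order, with a median length of 35.6 kb for the higher genes and 8.87 kb for the lower genes. The order in these pathways is therefore not particular to them. Pck1, with 6.20 kb, was a short gene among the higher ones. It lies on chromosome 2 from 173153073 to 173159274 in build mm10. Kap was 33.6-fold lower in PT, at 21.4 in the senescent and 719 in the young library, and its part in the other differences was not tested.

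Other genes of the same pathways came from a list of 66 genes that are not among the 39. In PT, 29 of them were listed, 19 higher and 10 lower. Past the fold rule were 12 as higher and 3 as lower, against 57.2% and 5.6% of all genes listed in PT. The share of higher genes was thus below the 78.4% of all genes listed in PT. Of the 8 listed genes around gluconeogenesis, 7 were higher, which is near that share. Of the 6 listed genes around glycolysis, 4 were higher and 2 lower, whereas the 7 listed glycolytic enzyme genes were all lower. The glucose transporter genes Slc2a2 and Slc5a1 were among the 4, at 2.72-fold and 2.40-fold higher. Of the 15 listed genes around the citrate cycle, 8 were higher and 7 lower. Ppargc1a, for a coactivator of gluconeogenic and mitochondrial genes, was 6.91-fold higher, at 0.945 in the senescent and 0.137 in the young library, and Gpt2, for the mitochondrial alanine transaminase, was 5.14-fold higher, at 0.628 in the senescent and 0.122 in the young library. The largest difference upwards was that of Pdk4, for a kinase that switches off pyruvate dehydrogenase, with a mean of 2.57 in the senescent and 0.0490 in the young library, 52.5-fold higher. Pdp2, for a phosphatase that switches the same enzyme back on, was 3.29-fold higher too, at 0.834 in the senescent and 0.254 in the young library. Pdk2 and Pdk3, for other kinases of that enzyme, were 1.41-fold higher and 2.31-fold lower. Mpc1 and Mpc2, for the carrier of pyruvate into mitochondria, were 2.11-fold and 1.81-fold lower. The entry of pyruvate into the cycle and its carboxylation by pyruvate carboxylase are alternative fates of the same molecule, and the balance between them was not tested. Acly, which cleaves citrate in the cytosol, was 5.01-fold higher, at 0.861 in the senescent and 0.172 in the young library. The largest difference downwards was that of Pgam2, for the muscle form of phosphoglycerate mutase, with a mean of 0.00568 in the senescent and 0.316 in the young library.

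In LOH, all 15 listed genes were lower in the senescent library, where 52.2% of all 1761 listed genes were lower and 47.8% higher. Only 2 of the 15 were past the fold rule, against 21.1% of all genes listed in LOH, and 0 were past it as higher, against 27.5%. Among genes whose higher mean reaches 1, all 13 enzyme genes were lower, against 53.2% of all such genes as lower and 46.8% as higher, and 1 was past the fold rule as lower, against 16.2%, and 0 as higher, against 14.2%. The 2 genes past the rule were gluconeogenic. Fbp1 had a mean of 0.915 in the senescent and 4.20 in the young library, 4.59-fold lower, and G6pc had a mean of 0.261 in the senescent and 0.971 in the young library, 3.72-fold lower. Pck1, at 1.74 in the senescent and 3.03 in the young library, and Pcx, at 0.238 in the senescent and 0.426 in the young library, were lower by less. The gluconeogenic genes were lower alongside the proximal tubule markers of this cluster. Of 13 such markers listed in LOH, 12 were lower and 1 higher, their summed level was 16.1 in the senescent and 267 in the young library, and 0 were at 0. Without Kap the sums were 14.6 in the senescent and 64.9 in the young library. The part of this tubule RNA in the lower gluconeogenic genes was not tested.

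The glycolytic and citrate cycle genes of LOH were lower by small amounts, from 0.41 to 0.97 on the log2 scale. Other markers were higher in LOH: Umod, of the thick ascending limb, had a mean of 148 in the senescent and 47.6 in the young library, 3 of 9 macrophage or monocyte markers had a summed level of 3.57 in the senescent and 0.302 in the young library, and 2 of 5 neutrophil markers had a summed level of 5.42 in the senescent and 0.0575 in the young library. The 2 distal tubule markers listed in LOH differed in direction. Slc12a3 was higher, at 15.5 in the senescent and 9.05 in the young library, and Pvalb was lower, at 0.971 in the senescent and 2.11 in the young library. The part of all these markers in the lower values of the enzyme genes was not tested. Ldhb had a mean of 14.6 in the senescent and 22.8 in the young library, and Pkm had a mean of 3.02 in the senescent and 4.53 in the young library. LOH had the highest listed mean of Ldhb in both libraries. The level of Ldhb in LOH was 210% of that in PT in the senescent library and 154% in the young library. The median of the proximal tubule markers was 14.1% of PT in the senescent and 43.5% in the young library, below that of Ldhb in both. Mdh1 had a mean of 6.63 in the senescent and 13.0 in the young library in LOH, close to its levels in PT.

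In endo, 6 genes were listed, 5 lower and 1 higher, where 51.8% of the 1028 listed genes were lower and 48.2% higher. The 4 of them whose higher mean reaches 1 were all lower, against 54.7% of such genes as lower and 45.3% as higher, and 1 was past the fold rule as lower, against 31.8%, and 0 as higher, against 36.9%. Pfkl, for the liver form of phosphofructokinase, had a mean of 0.162 in the senescent and 0.348 in the young library of endo, and Sucla2 had a mean of 0.919 in the senescent and 1.93 in the young library. These 2 genes were past the fold rule as lower, against 32.7% of all. The 1 gene past it as higher, against 41.4%, was Pdhb, for a subunit of pyruvate dehydrogenase, at 0.762 in the senescent and 0.309 in the young library. Fbp1 was lower in endo too, at 4.27 in the senescent and 7.48 in the young library, beside a summed level of the 6 proximal tubule markers of 31.8 in the senescent and 351 in the young library. Most of that difference was Kap, and without it the sums were 27.5 in the senescent and 57.4 in the young library. Macrophage or monocyte markers, 2 of 9, and neutrophil markers, 2 of 5, were listed in endo and were higher. Their part in these differences was not tested.

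**Figure D3:**
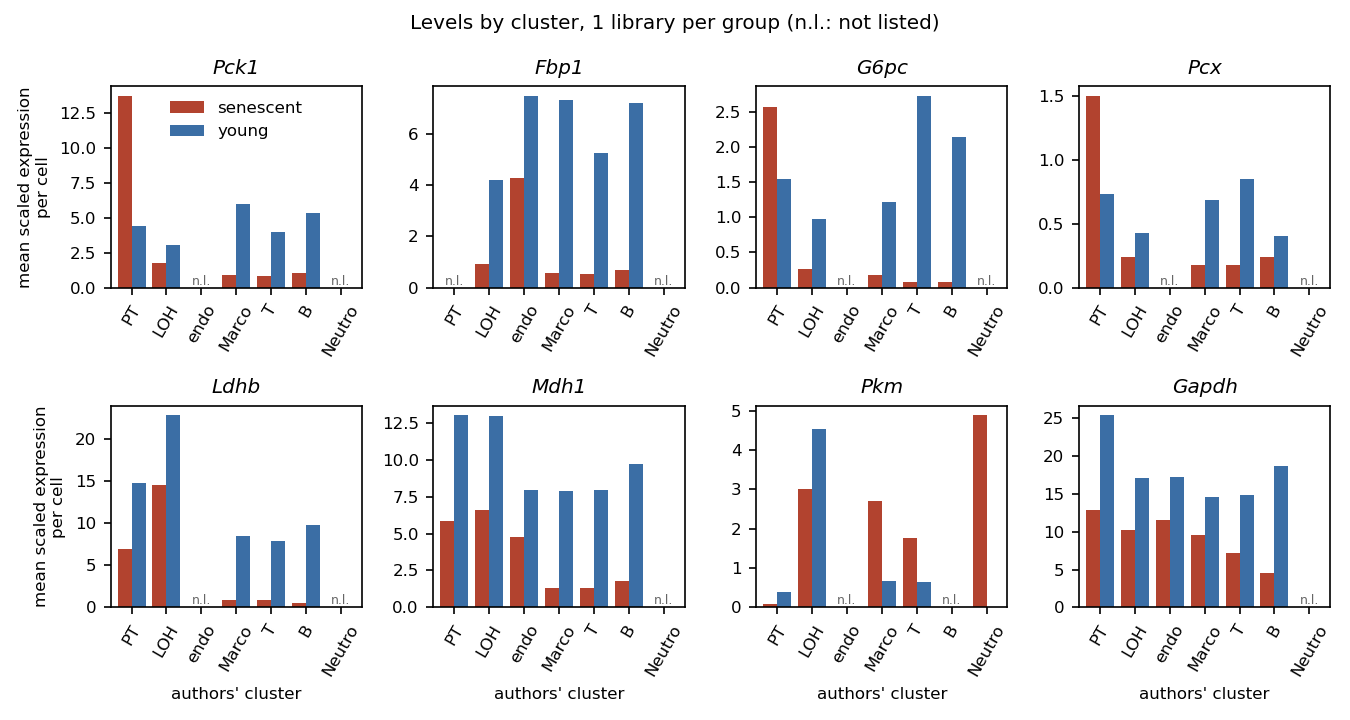
Mean scaled expression per cell of 8 genes in the 7 clusters, with the senescent library as the left bar and the young library as the right bar of each pair, 1 library per group, and n.l. where a gene was not listed. The senescent bars of Pck1, G6pc and Pcx are tallest in PT, the young bars of Fbp1 exceed 5 in endo, Marco, T and B, and Pkm has taller senescent than young bars in Marco, T and Neutro.

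In Marco, the macrophage cluster, 3 glycolytic genes were higher in the senescent library and the other 29 of the 32 listed genes were lower, where 58.3% of all 4462 listed genes were higher and 41.7% lower. Past the fold rule were 3 genes as higher, against 47.6% of all, and 20 as lower, against 31.5%. Of the 23 genes whose higher mean reaches 1, 1 was higher and 22 lower, against 57.1% and 42.9% of all such genes, and 1 was past the fold rule as higher and 15 as lower, against 43.8% and 33.3%. The 3 higher genes code for regulated steps. Hk2, for the inducible hexokinase that traps glucose in the cell, had a mean of 0.391 in the senescent and 0.0639 in the young library, 6.13-fold higher. Pfkp, for the platelet form of phosphofructokinase, had a mean of 0.254 in the senescent and 0.0552 in the young library, 4.60-fold higher. Pkm had a mean of 2.72 in the senescent and 0.673 in the young library, 4.04-fold higher. The enzymes of the middle of the pathway and lactate dehydrogenase A were lower by smaller amounts, with Gapdh at 9.58 in the senescent and 14.6 in the young library and Ldha at 3.16 in the senescent and 4.24 in the young library. Tpi1 was 2.32-fold lower.

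Markers of the cluster itself and of other cells moved as well. All 9 macrophage or monocyte markers were higher in Marco, by 1.97 to 3.28 on the log2 scale, which spans the values of Hk2 (2.61), Pfkp (2.20) and Pkm (2.01), and their summed level was 354 in the senescent and 68.5 in the young library. Of 5 neutrophil markers, 3 were listed in Marco and all 3 were higher, with a summed level of 6.58 in the senescent and 0.0589 in the young library, and S100a8 was listed at 0 in the young library. Each of the 14 proximal tubule markers listed there was lower, with a summed level of 13.1 in the senescent and 772 in the young library, and 0 of them were at 0. Without Kap the sums were 10.8 in the senescent and 131 in the young library. The part of these markers in the higher glycolytic genes was not tested. From the list of other pathway genes, Slc16a3, for a lactate exporter, was listed at 0.308 in the senescent and at 0 in the young library of Marco.

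All 4 listed gluconeogenic genes and all 18 listed citrate cycle genes were lower in Marco. Fbp1 had a mean of 0.561 in the senescent and 7.32 in the young library, 13.1-fold lower. G6pc, at 0.172 in the senescent and 1.21 in the young library, and Pck1, at 0.887 in the senescent and 6.00 in the young library, were 7.06-fold and 6.76-fold lower. Pcx was 3.86-fold lower, at 0.178 in the senescent and 0.687 in the young library. The proximal tubule markers listed in Marco were lower too, and their part in these lower values was not tested. Ldhb, the lactate dehydrogenase gene with the larger difference here, had a mean of 0.878 in the senescent and 8.50 in the young library, 9.68-fold lower. The citrate cycle genes with the largest differences were Mdh1 (6.08-fold lower), Suclg1 (4.55-fold lower) and Idh2 (4.24-fold lower). Pdha1, for the catalytic subunit of pyruvate dehydrogenase, was 4.11-fold lower, at 0.487 in the senescent and 2.00 in the young library, Idh3a was 3.07-fold lower, at 0.225 in the senescent and 0.691 in the young library, and Ogdh was 1.48-fold lower, at 0.746 in the senescent and 1.10 in the young library. Cs was the 1 citrate cycle gene not listed in Marco. The median log2 ratios were -2.45 for gluconeogenesis, -1.31 for the citrate cycle and -0.52 for glycolysis, against 0.72 for all genes listed in Marco.

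In T, 28 of the 30 listed genes were lower in the senescent library and 2 were higher, where 55.2% of all 4368 listed genes were lower and 44.8% higher. The 22 lower and 2 higher genes past the fold rule stand against 38.2% and 25.8% of all. Of the 21 genes whose higher mean reaches 1, 1 was higher and 20 lower, against 54.8% and 45.2% of all such genes, and 1 was past the fold rule as higher and 15 as lower, against 35.5% and 35% of them. Hk1, for the hexokinase that most cells use, had a mean of 0.648 in the senescent and 0.118 in the young library, 5.49-fold higher. Pkm had a mean of 1.76 in the senescent and 0.638 in the young library, 2.76-fold higher. The 7 T cell markers were all higher by 0.77 to 2.45 on the log2 scale, beside 2.46 for Hk1 and 1.47 for Pkm, and their summed level was 60.7 in the senescent and 16.7 in the young library. The part of the higher T cell marker level in the higher Hk1 and Pkm was not tested. Of 9 macrophage or monocyte markers, 0 were listed in T. The neutrophil marker S100a9 was higher there, at 0.528 in the senescent and 0.0172 in the young library. The red cell marker Hbb-bs was higher too, at 0.785 in the senescent and 0.192 in the young library. The 4 listed thick ascending limb markers were lower, as was 1 marker each of the distal tubule, collecting duct and intercalated lists. The part of these markers was not tested.

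G6pc and Fbp1 had the largest differences downwards in T among the 30 genes. G6pc had a mean of 0.0746 in the senescent and 2.73 in the young library, 36.6-fold lower. Fbp1 had a mean of 0.521 in the senescent and 5.25 in the young library, and Pck1 had a mean of 0.822 in the senescent and 4.01 in the young library. Pcx was 4.86-fold lower, at 0.176 in the senescent and 0.854 in the young library. Ldhb was 8.96-fold lower, at 0.886 in the senescent and 7.94 in the young library, while Ldha was 1.47-fold lower, at 3.04 in the senescent and 4.47 in the young library. The 2 lactate dehydrogenase genes thus differed in size of difference but not in direction. Tpi1 and Pgam1 were 5.19-fold and 2.81-fold lower, and among citrate cycle genes Aco1, Mdh1 and Suclg1 were 6.64-fold, 6.11-fold and 4.72-fold lower. Pdha1 was 2.36-fold lower, at 0.599 in the senescent and 1.41 in the young library, and Idh3a was 1.38-fold lower, at 0.462 in the senescent and 0.636 in the young library. All 15 proximal tubule markers were lower in T, with a summed level of 11.8 in the senescent and 618 in the young library, or, without Kap, 8.94 in the senescent and 113 in the young library.

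In B, all 31 listed genes were lower in the senescent library, where 71.8% of all 3077 listed genes were lower and 28.2% higher. Of the 31 genes, 24 were past the fold rule, against 54% of all genes listed in B, and 0 were past it as higher, against 16.3%. All 24 genes whose higher mean reaches 1 were lower, against 54.7% of all such genes as lower and 45.3% as higher, and 21 were past the fold rule as lower, against 41.6%, and 0 as higher, against 28.7%. G6pc had a mean of 0.0761 in the senescent and 2.14 in the young library, 28.1-fold lower, and Fbp1 had a mean of 0.688 in the senescent and 7.18 in the young library. Pck1 was 5.28-fold lower, at 1.01 in the senescent and 5.32 in the young library, and Pcx was 1.71-fold lower, at 0.236 in the senescent and 0.403 in the young library. Ldhb, at 0.571 in the senescent and 9.81 in the young library, was 17.2-fold lower, and Ldha, at 1.81 in the senescent and 4.66 in the young library, was 2.57-fold lower. Gapdh differed more in B than in any other cluster that lists it, with a mean of 4.57 in the senescent and 18.7 in the young library. Tpi1 was 6.86-fold lower, and among citrate cycle genes Idh2, Mdh1 and Suclg1 were 7.86-fold, 5.35-fold and 5.24-fold lower. Pdha1 was 2.96-fold lower, at 0.409 in the senescent and 1.21 in the young library, Idh3a was 2.98-fold lower, at 0.318 in the senescent and 0.947 in the young library, and Ogdh was 1.94-fold lower, at 0.787 in the senescent and 1.53 in the young library. The 14 proximal tubule markers listed in B were lower as well, with a summed level of 10.5 in the senescent and 624 in the young library, or, without Kap, 9.24 in the senescent and 125 in the young library. Of 5 B cell markers, 4 were listed in B and were higher, with a summed level of 67.1 in the senescent and 28.9 in the young library. Cd74, from the macrophage or monocyte list, was higher, at 111 in the senescent and 36.9 in the young library. S100a8, S100a9 and the endothelial marker Pecam1 were at 0.589, 0.632 and 0.703 in the senescent and at 0 in the young library. The 2 listed thick ascending limb markers and 1 collecting duct marker were lower. The part of these markers was not tested.

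Other genes of the same pathways were listed in the immune clusters too. Me1, for the cytosolic malic enzyme, was 20.7-fold lower in Marco, 12.3-fold lower in T and 14.4-fold lower in B. The sodium-glucose cotransporter gene Slc5a1 was listed at 0 in the senescent library of B and at 0.328 in the young library. Of the 66 genes, 28 of 32 listed were lower in Marco, 26 of 31 in T and 25 of 27 in B, where 41.7%, 55.2% and 71.8% of all listed genes were lower.

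Neutro listed 2 of the 39 genes, where 93.7% of all 378 listed genes were lower and 6.35% higher. The smallest mean above 0 listed in Neutro was 0.00475 in the senescent and 1.07 in the young library, so no mean between 0 and 1.07 was listed for the young library. Pkm was listed at 4.88 in the senescent library and at 0 in the young library, and Pgam1 was 5.01-fold lower, at 1.36 in the senescent and 6.84 in the young library. Both were past the fold rule, against 5.29% of all genes listed in Neutro as higher and 93.4% as lower. Genes of gluconeogenesis and of the citrate cycle were not listed in this cluster. Of 15 proximal tubule markers, 2 were listed in Neutro, and both were lower. Kap had a mean of 2.67 in the senescent and 42.7 in the young library, and Miox had 1.83 in the senescent and 5.66 in the young library. Their part in the lower Pgam1 was not tested.

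To set the levels of tubule enzymes outside PT beside those in PT, each gene listed in both was expressed as a percent of its PT level in the same library. The 3 gluconeogenic genes had a median of 6.71% in Marco, 5.97% in T and 7.32% in B in the senescent library, and of 94.1%, 117% and 121% in the same clusters of the young library. The corresponding medians of proximal tubule markers were 8.83%, 7.52% and 8.13% in the senescent library and 110%, 86.8% and 69.4% in the young library. The medians of the gluconeogenic genes thus lay near those of the markers in the senescent library. All 3 gluconeogenic genes placed here were listed as higher in PT and lower in Marco, T and B. Their lower percent in the senescent than in the young library therefore restates those directions and adds nothing to them. Fbp1 could not be placed, since it was not listed in PT.

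The medians of the citrate cycle genes lay above those of the tubule markers in the senescent library. Their median was 27.8% of PT in Marco, 23.9% in T and 34.1% in B in the senescent library, and 90.8%, 68.4% and 76.0% in the young library. Dlat, Aco1, Idh1, Ogdh, Sucla2 and Suclg2 were listed as higher in PT and lower in each of these clusters that listed them. For these genes the lower percent in the senescent library restates those directions. Glycolytic genes lay higher again in the senescent library, with medians of 73.3% in Marco, 56.1% in T and 35.7% in B, against 61.0%, 64.3% and 66.8% in the young library. Among the glycolytic genes Ldhb had the lowest values, at 12.7% of PT in Marco, 12.8% in T and 8.23% in B in the senescent library, close to the tubule markers, and at 57.6%, 53.8% and 66.5% in the young library. Tpi1 came next, at 38.7% in Marco, 19.6% in T and 14.6% in B in the senescent library, against 48.5%, 55.0% and 54.2% in the young library. Pkm was at the other end, with 2986% of its PT level in Marco and 1939% in T in the senescent library, against 170% and 161% in the young library. Pkm was listed as lower in PT and higher in Marco and T, so this rise restates those directions. Its senescent percents are taken over a PT mean of 0.0909, which lies under 0.1. These values describe the pair of libraries, which all clusters share, and the part of tubule RNA in the lower levels of the immune clusters was not tested.

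**Figure D4:**
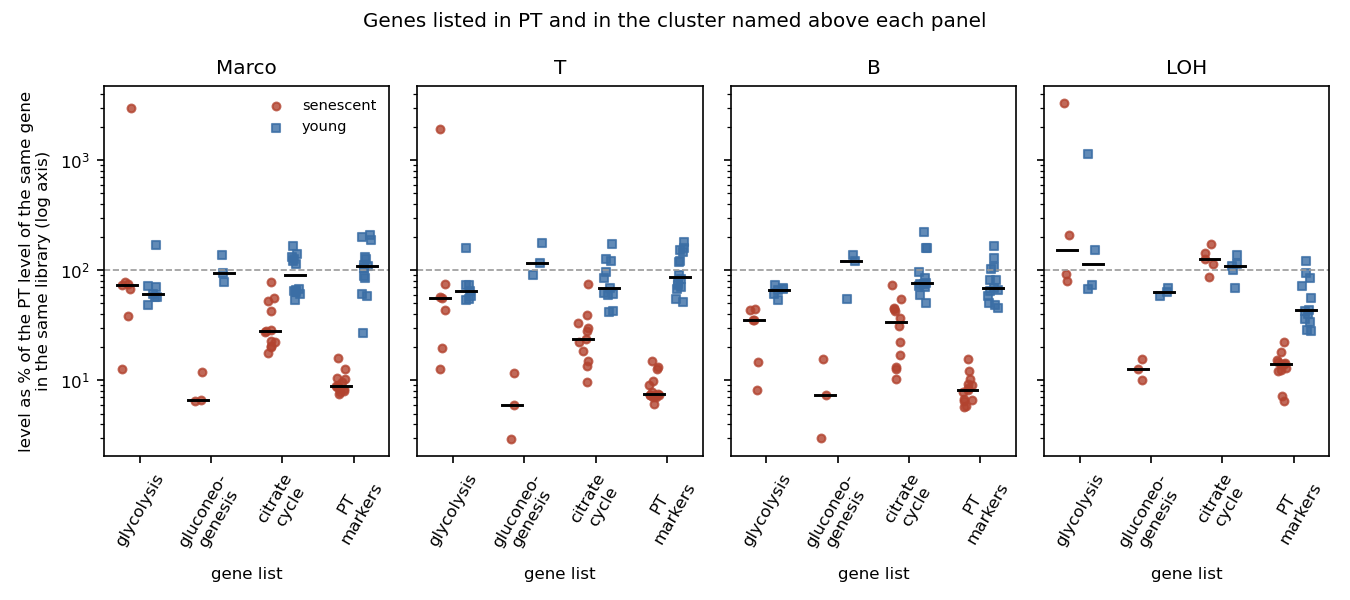
Level of each gene in Marco, T, B and LOH as a percent of the level of the same gene in PT in the same library, on a log axis, for the 3 pathways and for proximal tubule markers, with the senescent library as circles to the left, the young library as squares to the right and a black line at each median. In Marco, T and B the senescent medians of the gluconeogenic genes (6.71%, 5.97% and 7.32%) sit beside those of the markers, and glycolytic and citrate cycle medians sit above them.

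Pck1, G6pc and Pcx were thus listed with opposite directions in PT and in LOH, Marco, T and B. The same held for 6 citrate cycle genes, Dlat, Aco1, Idh1, Ogdh, Sucla2 and Suclg2, which were higher in PT and lower in each other cluster that listed them. Pkm had the reverse pattern, lower in PT and LOH and higher in Marco, T and Neutro. All 27 genes listed in Marco, T and B alike were lower in each of these clusters, as were 66.5% of all 1779 genes listed in the same 3 clusters. These comparisons share the same 2 libraries, so the directions are given side by side and the differences between clusters were not tested.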

How the data were processed

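The deposited table holds 1 comparison per cluster, of 1 senescent with 1 young library, with 20111 entries. Reads were processed with Cell Ranger 2.1.1 against mm10, per the submitters' processing notes. Cell filters, doublet treatment, clustering and the authors' test are unknown from the sources used here. Each library has a column of signal values, the authors' means over the cells of a cluster, and the descriptions in the labels tie columns to libraries. The table's own name for its contrast does not name the groups. The log2 fold changes deposited by the authors equalled the log2 of senescent over young means after adding 0.0001, within 0.01, in 20110 entries. The deposited p-values are over cells, which are not replicates, and only an alternative uses them.

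Computed here were ratios of means, counts by the fold rule (2-fold), medians of log2 ratios (0.1 added, from at least 3 genes whose higher mean reaches 0.1), and levels relative to PT. Depth is unknown, so no interval was computed. Genes, lists and the rule for named genes (regulated enzymes wherever listed, genes past the fold rule in PT, elsewhere up to 3 per pathway and direction, and up to 5 other pathway genes per cluster) were chosen with earlier results of these data known. Other genes named in the text were chosen after their values were seen. Symbols of all 39 genes matched RefSeq, build GRCm38, the assembly also called mm10. Gapdh, Tpi1, Pgk1, Pgam1, Eno1 and Ldha have near-identical pseudogene copies that can share reads. The counting and medians were tested on simulated data. Python 3.11.15, numpy 2.4.6, pandas 2.3.3 and matplotlib 3.10.9 were used. Alternatives were a fold of 1.5, no minimum mean, pseudocounts of 1 and 0.01, the authors' adjusted p of at most 0.05 and, chosen after seeing the data, a minimum mean of 1.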

Additional observations from a re-analysis of the deposited data

Results flagged for a closer look

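Some genes were past the fold rule in 2 clusters with opposite directions. The differences of their log2 fold changes (senescent over young) were not tested, as each group had a single library. For Pck1, PT exceeded Marco by 4.41, T by 3.94 and B by 4.05. For Pcx, PT exceeded Marco by 2.99 and T by 3.33. For Idh1, PT exceeded Marco by 2.59, T by 3.30 and B by 2.52. For Pkm, the log2 fold change of PT minus that of Marco was -4.14, and that of PT minus that of T was -3.59. For Pdhb, endo exceeded Marco by 2.34. In endo, 0 of 7 endothelial markers were listed.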

How the results depend on the processing

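No paired analysis was possible because each group had 1 library, and no library could be left out. No median changed sign under any alternative. Of the alternative counts, 44 of 70 stayed within 1.5 times the reported value, as did 37 of 48 alternative medians. Both totals include the alternative without a minimum mean, which could change nothing. Each listed gene of these pathways already had a higher mean above 0.1. The 44 also include the counts of higher genes in LOH and in B, which were 0 in every setting. These totals therefore overstate how far the results were put to a test. At a fold of 1.5 in place of 2, the counts were 7 higher and 13 lower genes in PT, 12 lower in LOH and 4 lower in endo. With a pseudocount of 1, which understates low genes, the counts were 1 higher and 1 lower in PT, 1 lower in LOH, 0 higher and 0 lower in endo, 1 higher and 7 lower in Marco, 0 higher and 8 lower in T, and 11 lower in B. With the authors' adjusted p of at most 0.05 as well, the counts were 1 lower in LOH, 0 higher and 0 lower in endo, 0 higher in T, 15 lower in B, and 0 higher and 0 lower in Neutro. With a minimum mean of 1, chosen after seeing the data, they were 1 lower in LOH, 0 higher and 1 lower in endo, 1 higher in Marco and 1 higher in T. With a pseudocount of 1, the gluconeogenesis median was 0.53 in PT, -0.60 in LOH, -1.40 in Marco, -1.63 in T and -1.60 in B, the citrate cycle median was 0.15 in PT, -0.43 in LOH, -0.68 in Marco, -0.62 in T and -0.72 in B, and the glycolysis median was -0.82 in B. Depth is unknown, so the precision of low means could not be given.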
